A study of Mus musculus with 6 samples.

Results

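Collagen genes were followed in the dissected cortex of mice at postnatal day 7. A collagen gene was any row of the deposited expression table whose symbol reads Col, a number, a, and a number, which gave 44 of the 24972 genes in the table. The 44 genes were sorted by chain type into 11 fibrillar collagens (types I, II, III, V, XI, XXIV and XXVII), 8 basement membrane collagens (types IV, XV and XVIII), 6 chains of type VI and 19 other chains.

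Collagens are secreted or membrane-bound proteins whose chains wind around each other in a triple helix. Fibrillar collagens assemble into tensile fibrils, type IV collagen forms the sheet-like network of basement membranes, and type VI collagen forms beaded microfibrils that sit between fibrils and cell surfaces. In the brain the fibrillar types are made mainly by fibroblasts of the meninges and of the spaces around vessels, while type IV collagen is made largely by the cells of blood vessels and lies beneath the pia.

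Total RNA was sequenced from 3 wildtype libraries, which were Zmiz1f/f, and from 3 libraries labelled Zmiz1-KO, which were Zmiz1f/f;Emx1Cre. All 6 therefore came from mice with floxed alleles of Zmiz1, a transcriptional coregulator. Emx1-driven Cre recombines in the progenitors of the dorsal telencephalon and in the neurons and glia they form, whereas meningeal fibroblasts and vascular cells come from other lineages. The sources used here do not say whether each library was 1 animal, so the p-values measure the spread between these libraries.

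Zmiz1 itself was higher, not lower, under the knockout label. Its normalized counts were 8119, 7929 and 7461 in wildtype and 9944, 9779 and 9660 in the Zmiz1-KO-labelled libraries, a log2 fold change of 0.32 ± 0.04 (SE) with a limma adjusted p of 0.00125. Gene totals do not show which exons were read, and every direction below is that of the labels. Deposited values summed to between 32662000 and 33239700 per library. Xist was high in wildtype replicate 3 and in Zmiz1-KO replicate 2, so each group held 1 library with high Xist.

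Promoters are shown for Col1a2, the collagen gene that passed the test, for Col6a1, the gene nearest the threshold, for Col3a1, whose product shares fibrils with type I collagen, and for Col24a1 and Col8a1, which were lower in every library labelled Zmiz1-KO. The sequences are those of RefSeq on GRCm38.p6, 5′ to 3′ on the strand of the gene, limited to the longest run without an annotated exon in the 250 bases before the start site. Capitals mark a TATA box (TATAAA on the gene's strand), a CCAAT box (CCAAT on either strand) or a GC box (GGGCGG on either strand).
Col1a2, chr6:4505370-4505492, plus strand: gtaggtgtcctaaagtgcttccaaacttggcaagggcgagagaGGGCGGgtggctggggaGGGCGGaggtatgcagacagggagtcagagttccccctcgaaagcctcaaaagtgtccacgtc
Col6a1, chr10:76726169-76726294, minus strand: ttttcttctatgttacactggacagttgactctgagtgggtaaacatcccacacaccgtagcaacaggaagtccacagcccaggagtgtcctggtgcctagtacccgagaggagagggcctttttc
Col3a1, chr1:45311288-45311537, plus strand: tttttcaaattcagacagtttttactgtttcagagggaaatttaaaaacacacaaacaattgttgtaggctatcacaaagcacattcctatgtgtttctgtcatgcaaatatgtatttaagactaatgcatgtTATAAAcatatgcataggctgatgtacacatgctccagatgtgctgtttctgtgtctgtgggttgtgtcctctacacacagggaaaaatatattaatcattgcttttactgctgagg
Col24a1, chr3:145292222-145292471, plus strand: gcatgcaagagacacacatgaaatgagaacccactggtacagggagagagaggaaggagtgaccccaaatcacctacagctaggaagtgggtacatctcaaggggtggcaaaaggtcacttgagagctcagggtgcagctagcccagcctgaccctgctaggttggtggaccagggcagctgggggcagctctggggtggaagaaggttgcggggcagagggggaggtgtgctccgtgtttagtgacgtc
Col8a1, chr16:57754738-57754987, minus strand: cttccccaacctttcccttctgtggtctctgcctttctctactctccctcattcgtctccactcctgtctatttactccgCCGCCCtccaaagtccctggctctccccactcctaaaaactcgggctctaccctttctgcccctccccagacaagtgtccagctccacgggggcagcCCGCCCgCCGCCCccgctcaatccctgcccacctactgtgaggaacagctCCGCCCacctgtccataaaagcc

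These 5 stretches differed in the motifs they held. The Col1a2 stretch held 2 GC boxes, the Col8a1 stretch held 4, and the Col3a1 stretch held 1 TATA box. None of the motifs was found in the stretches shown for Col6a1 and Col24a1. The stretches of Col1a2 and Col6a1 end 126 and 125 bases before the start site, so the bases nearest to it are not shown. The whole Col1a2 window also held 1 CCAAT box. RefSeq windows were matched for 35 of the 44 collagen genes. Over the whole 250 bases, a TATA box was found for 5 of those 35 genes, a CCAAT box for 13 and a GC box for 21. Some genes had more than 1 window. Counted by window, 13.158% of the 38 collagen windows held a TATA box, 34.211% a CCAAT box and 57.895% a GC box. Among all 32851 promoter windows of the same length, 7.592% held a TATA box, 33.85% a CCAAT box and 32.742% a GC box. These are letter matches and say nothing of factor binding. Col1a1, Col2a1, Col4a3, Col5a2, Col9a3, Col12a1, Col14a1, Col22a1 and Col26a1 had no entry.

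To compare levels between genes, each normalized count was divided by the length of the gene's main transcript in kilobases. The chains of vascular basement membrane were the highest collagens of this cortex. Col4a1 averaged 1173 normalized counts per kilobase over the 6 libraries and Col4a2 averaged 1011, and Col4a1 was above Col4a2 in 6 of 6 libraries. Col1a2 followed at 853, and then came Col9a3 at 569, Col6a1 at 541, Col3a1 at 520, Col26a1 at 507 and Col1a1 at 471.

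These 8 genes held 63.0% of the summed collagen level per kilobase. In all, 21 of the 44 genes averaged at least 100 normalized counts per kilobase, while 6 averaged under 10. The lowest were Col17a1 at 3.29, Col10a1 at 3.28 and Col6a6 at 3.12, so the collagen levels spanned 376-fold. Order in the middle of the list depended on the length used: with the union of all exons, Col1a2 ranked 6 in place of 3 and Col25a1 ranked 21 in place of 10, while Col4a1 and Col4a2 stayed 1 and 2.

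**Figure D1:**
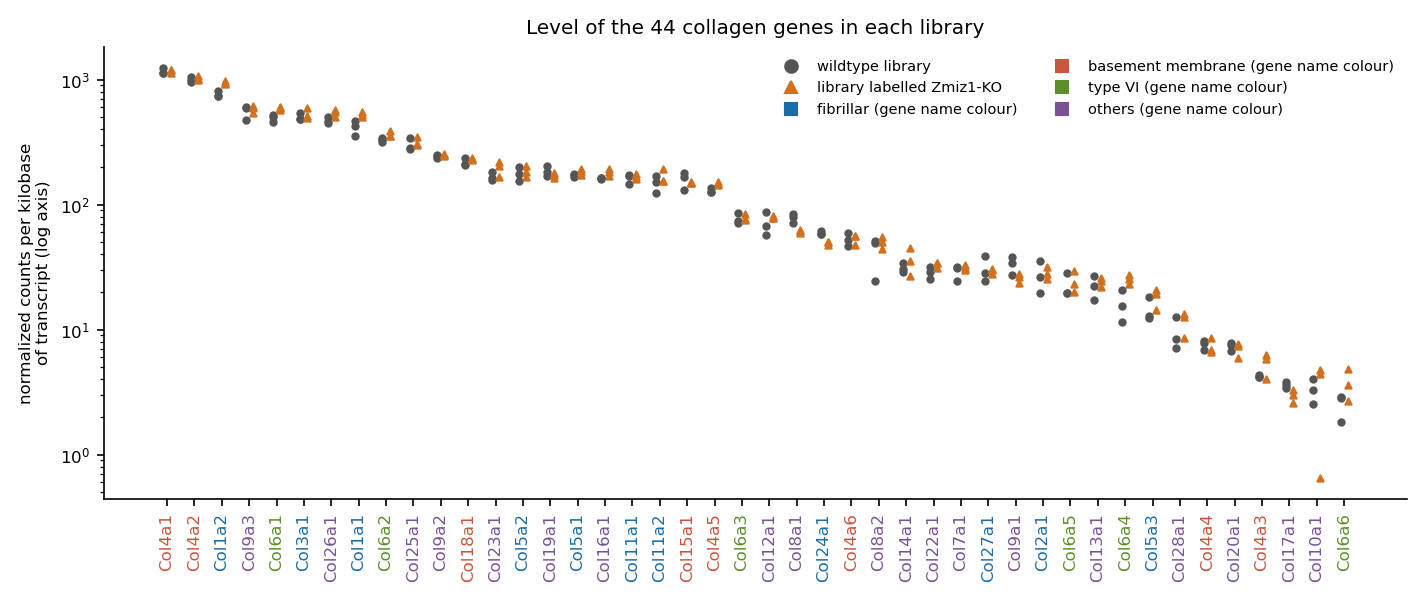
Level of each of the 44 collagen genes in normalized counts per kilobase of the main transcript, on a log axis, with 1 point for each of the 3 wildtype libraries (circles) and 3 Zmiz1-KO-labelled libraries (triangles), ordered by mean and with gene names coloured by collagen group. Col4a1 and Col4a2 stand at the top with means of 1173 and 1011, and Col17a1, Col10a1 and Col6a6 at the bottom with means of 3.29, 3.28 and 3.12.

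The makeup of the collagens was also taken by summed level per kilobase. Basement membrane collagens made up 29.1 to 33.9% of it (median 30.7%), fibrillar collagens 27.5 to 31.8% (median 29.6%), the other chains 27.6 to 29.4% and type VI 10.7 to 11.9% (median 11.3%). The basement membrane share was above the fibrillar share in every library but Zmiz1-KO replicate 2, with 29.1 and 31.8%. All shares here rest on the main transcript length and were not taken with the union of all exons. By that union Col1a2 is 12.4 kilobases in place of 5.35 and Col3a1 9.82 in place of 5.56. Col4a1 is 7.46 in place of 6.62 and Col4a2 6.62 in place of 6.45. The union thus lowers these fibrillar levels more than these type IV levels. The type VI share was 10.7 to 11.1% in wildtype and 11.5 to 11.9% in the Zmiz1-KO-labelled libraries, without overlap.

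Between the groups, collagen expression differed by little and mostly in one direction. All 44 genes passed the filter on low values, a normalized count of 10 or above in 3 or more libraries, and entered a limma fit over 15800 genes. Col1a2 rose in the Zmiz1-KO-labelled libraries, and no collagen gene fell, at a Benjamini-Hochberg adjusted p of at most 0.05. Over all tested genes this threshold was passed by 0.165% in the higher direction and by 0.247% in the lower direction.

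The log2 fold change was above 0 for 34 of the 44 collagen genes and below 0 for 10, with a median of 0.09 and a range from -0.35 to 0.70. Over all tested genes it was above 0 for 7890 and below 0 for 7910, with a median of -0.000175. With 1 library left out, 30 to 35 collagen genes were above 0, and the median was lowest at 0.06 without wildtype replicate 1 and highest at 0.14 without wildtype replicate 3. The 2 groups of libraries did not overlap for 11 collagen genes. In 8 of these, 18.2% of the family, every library labelled Zmiz1-KO was higher, against 8.1% of all tested genes. In the other 3, 6.82% of the family, every such library was lower, against 8.16% of all tested genes. An unadjusted limma p under 0.05 was reached by 8 collagen genes in the higher direction, where all genes gave 5.13%, and by 2 in the lower direction, where all genes gave 5.84%.

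Summed over the 44 genes, the normalized counts were 45689, 45102 and 47370 in wildtype and 49275, 49954 and 50006 in the Zmiz1-KO-labelled libraries. The sums of the groups did not overlap, and they were 0.137 to 0.144% of all normalized counts in wildtype and 0.150 to 0.153% in the others. In RNA from whole tissue, more cells of a type and more RNA per cell cannot be told apart.

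**Figure D2:**
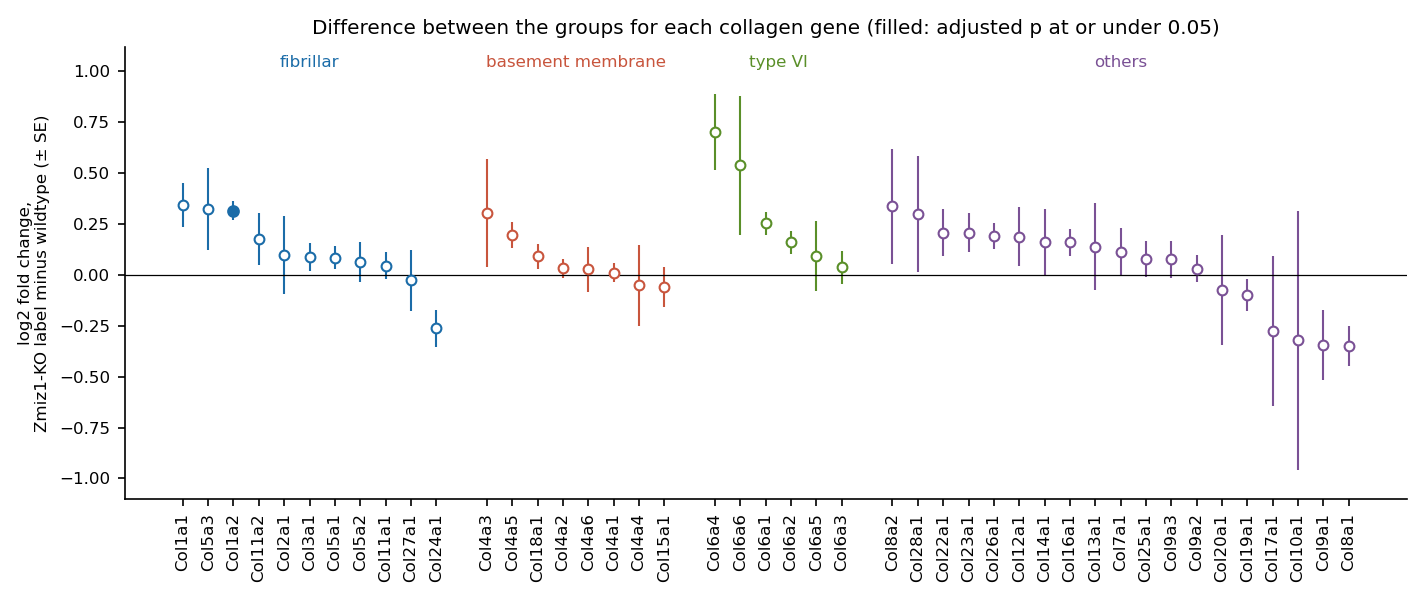
Log2 fold change of each collagen gene, libraries labelled Zmiz1-KO against wildtype (3 each), with bars of 1 standard error from the limma fit and colours for the 4 collagen groups. Points lie above 0 for 34 of the 44 genes, and the filled point, Col1a2 at 0.32, is the gene past the adjusted threshold. Col6a4 at 0.70 is the highest point and Col8a1 at -0.35 the lowest, and neither passed that threshold.

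Among the 11 fibrillar collagens, 1 rose and none fell by the test, 9 had a log2 fold change above 0 and the median was 0.09. That median was 0.04 without Zmiz1-KO replicate 2 and 0.14 without Zmiz1-KO replicate 3 or without wildtype replicate 3. Their summed normalized counts ran from 14073 to 15810 in wildtype and from 16465 to 17807 in the Zmiz1-KO-labelled libraries.

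Col1a2, on chromosome 6 from 4504814 to 4541544 of GRCm38, encodes the alpha-2 chain of type I collagen, the main fibril of skin, bone and meninges. Its normalized counts were 3921, 3929 and 4348 in wildtype and 4926, 5189 and 5059 in the Zmiz1-KO-labelled libraries. Every library of the second group was above every wildtype library. The means were 4066 ± 244 and 5058 ± 132 (SD, n = 3 each), a 1.25-fold difference with a log2 fold change of 0.32 ± 0.05 (SE) and a limma adjusted p of 0.00464. By p-value it was number 13 of the 15800 genes. Without wildtype replicate 1, the library with the lowest meningeal and striatal marker sums, the log2 fold change was 0.29 with a limma adjusted p of 0.0247. Without Zmiz1-KO replicate 3 the call was lost, with a log2 fold change of 0.32 and a limma adjusted p of 0.0688.

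Col1a1 encodes the alpha-1 chain, which joins the product of Col1a2 in the type I molecule. Its normalized counts were 2091, 2535 and 2781 in wildtype and 3282, 3101 and 2958 in the Zmiz1-KO-labelled libraries. The groups did not overlap, but wildtype was spread over a wide range. The log2 fold change of 0.34 ± 0.11 (SE) was as large as that of Col1a2 and had a limma adjusted p of 0.316. With 1 library left out it ran from 0.23, without wildtype replicate 1, to 0.43.

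Col3a1 encodes type III collagen, which mixes with type I in fibrils and, at the pial surface, is a ligand of the receptor GPR56. Its normalized counts were 2700, 2705 and 2996 in wildtype and 2863, 3322 and 2758 in the Zmiz1-KO-labelled libraries. Here the groups overlapped, and the log2 fold change was 0.09 ± 0.07 (SE) with a limma adjusted p of 0.704, and 0.0068 without Zmiz1-KO replicate 2.

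Col24a1, a fibrillar chain with an incomplete helix, went the other way. It had 441, 413 and 412 normalized counts in wildtype and 357, 341 and 356 in the Zmiz1-KO-labelled libraries. All 3 of the latter were below all 3 of the former, yet the log2 fold change of -0.26 ± 0.09 (SE) had a limma adjusted p of 0.264.

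The other 7 fibrillar genes had groups that overlapped. Their log2 fold changes were 0.08 for Col5a1 and 0.07 for Col5a2, chains that regulate the width of type I fibrils, 0.32 for Col5a3, 0.05 for Col11a1 and 0.18 for Col11a2, known from cartilage, 0.10 for Col2a1, the main collagen of cartilage, and -0.03 for Col27a1. Limma adjusted p-values of these genes were 0.598 or more. The sign turned for Col2a1 (-0.11 without wildtype replicate 3), Col11a1 (-0.02 without wildtype replicate 1), Col27a1 (0.16 without wildtype replicate 2) and Col5a2 (-0.02 without wildtype replicate 2).

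Basement membrane collagens included the highest genes in level, Col4a1 and Col4a2, and in the comparison both lay close to 0. None of the 8 passed the test in either direction, 6 had a log2 fold change above 0 and the median was 0.03 (-0.01 to 0.07 with 1 library left out, and below 0 without wildtype replicate 2). With 1 library left out the sign changed for Col4a1, Col4a2, Col4a4, Col4a6 and Col15a1, whose values then lay between -0.02 and 0.06, -0.0040 and 0.07, -0.17 and 0.02, -0.06 and 0.11, and -0.19 and 0.03. Their sums were 16499 to 18233 normalized counts in wildtype and 17250 to 18175 in the Zmiz1-KO-labelled libraries, so the ranges overlapped.

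Col4a1 and Col4a2, whose chains form the type IV network of nearly all basement membranes, lie head to head on chromosome 8 with gene models that overlap by 22 bases. Col4a1 had 8264, 7410 and 7515 normalized counts in wildtype and 7883, 7532 and 7935 in the Zmiz1-KO-labelled libraries. Col4a2 had 6805, 6185 and 6355 in wildtype and 6486, 6365 and 6919 in the Zmiz1-KO-labelled libraries. In both genes the highest and lowest wildtype libraries lay further apart than the group means. The log2 fold changes were 0.01 ± 0.04 (SE) for Col4a1 and 0.03 ± 0.05 (SE) for Col4a2, with limma adjusted p-values of 0.957 and 0.867.

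Col18a1, the source of the fragment endostatin, was the next in level of this group. Its normalized counts were 1020, 994 and 1122 in wildtype and 1091, 1120 and 1125 in the Zmiz1-KO-labelled libraries, with groups that overlapped by a narrow margin. The log2 fold change was 0.09 ± 0.06 (SE) with a limma adjusted p of 0.646.

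Col4a5, an X-linked type IV chain best known from kidney, was the one basement membrane gene without overlap. It had 821, 822 and 890 normalized counts in wildtype and 942, 974 and 985 in the Zmiz1-KO-labelled libraries. Its log2 fold change was 0.20 ± 0.06 (SE), with a limma adjusted p of 0.247, and of 0.274 with a term for high Xist. Its X-linked neighbour Col4a6, whose start lies 1308 bases away on the other strand, had a log2 fold change of 0.03. The other members were at 0.30 for Col4a3, -0.05 for Col4a4 and -0.06 for Col15a1, a multiplexin of vessel walls, all with overlapping groups.

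All 6 type VI chains had a log2 fold change above 0, though none passed the test, and the median was 0.21. With 1 library left out, Col6a3 and Col6a5 reached -0.02 (without wildtype replicate 2) and -0.05 (without Zmiz1-KO replicate 2). Their sums were 4187 to 4539 normalized counts in wildtype and 4919 to 5091 in the Zmiz1-KO-labelled libraries, without overlap. The microfibrils are built from chains of Col6a1 and Col6a2 with a further long chain, usually that of Col6a3.

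Col6a1, on chromosome 10 from 76708792 to 76726168 of GRCm38, had 1868, 2067 and 2145 normalized counts in wildtype and 2425, 2353 and 2455 in the Zmiz1-KO-labelled libraries. The groups were clearly apart, and the means were 2027 ± 143 and 2411 ± 52.4 (SD, n = 3 each). Its log2 fold change of 0.25 ± 0.05 (SE) had a limma adjusted p of 0.0560, just above the threshold. With 1 library left out, the limma adjusted p ran from 0.0364 to 0.327.

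Col6a2, which lies 85161 bases from Col6a1 on the same strand, had 1336, 1289 and 1254 normalized counts in wildtype and 1400, 1407 and 1530 in the Zmiz1-KO-labelled libraries. The groups did not overlap, with a log2 fold change of 0.16 ± 0.06 (SE) and a limma adjusted p of 0.295. Col6a3 had 669, 638 and 765 in wildtype and 689, 756 and 677 in the Zmiz1-KO-labelled libraries. Col6a3 overlapped between the groups, with a log2 fold change of 0.04 ± 0.08 (SE) and a limma adjusted p of 0.918.

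Col6a4, Col6a5 and Col6a6 encode long chains related to that of Col6a3, and stand together on chromosome 9. Col6a4 had 114, 154 and 84.6 normalized counts in wildtype and 188, 201 and 170 in the Zmiz1-KO-labelled libraries. It had the widest difference of the 44 genes, without overlap, at a log2 fold change of 0.70 ± 0.19 (SE) and a limma adjusted p of 0.163. Of its exon bases, 3.39% are shared with the gene model Gm47575, and the library kit does not mark strand. Col6a5 and Col6a6 overlapped between the groups, with log2 fold changes of 0.09 and 0.54 and limma adjusted p-values of 0.900 and 0.604. Col6a6 was low throughout, at 16.1 to 25.2 normalized counts in wildtype and 23.8 to 42.6 in the others.

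The 19 other chains comprise 9 fibril-associated collagens, 4 transmembrane collagens, 3 short-chain network collagens and the chains of Col7a1, Col26a1 and Col28a1. None passed the test, 13 had a log2 fold change above 0, and the median was 0.11, or 0.020 without wildtype replicate 1. Their sums were 9197 to 9707 normalized counts in wildtype and 9886 to 10276 in the Zmiz1-KO-labelled libraries, without overlap.

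Col8a1, a short-chain collagen of the matrix beneath endothelia, had 427, 408 and 363 normalized counts in wildtype and 320, 304 and 314 in the Zmiz1-KO-labelled libraries. All libraries of the second group were below wildtype, with means of 399 ± 32.9 and 313 ± 8.13 (SD, n = 3 each). The log2 fold change of -0.35 ± 0.10 (SE) was the lowest of the family and had a limma adjusted p of 0.168. Its partner Col8a2 had a log2 fold change of 0.34, with 106 normalized counts in wildtype replicate 1 and 192 to 240 in the other 5 libraries, and without that replicate its log2 fold change was -0.000301.

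Col26a1, a small secreted collagen, had 1358, 1278 and 1230 normalized counts in wildtype and 1489, 1564 and 1363 in the Zmiz1-KO-labelled libraries. Col16a1, a fibril-associated collagen, had 839, 857 and 847 in wildtype and 1002, 884 and 957 in the Zmiz1-KO-labelled libraries. Neither gene overlapped between the groups, and in Col26a1 the gap was a few counts wide. The log2 fold changes were 0.19 ± 0.06 (SE) for Col26a1 and 0.16 ± 0.07 (SE) for Col16a1, with limma adjusted p-values of 0.247 and 0.379.

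Col17a1, a transmembrane collagen of hemidesmosomes in skin, was near the filter. It had 19.8, 21.0 and 18.6 normalized counts in wildtype and 17.9, 16.5 and 14.3 in the Zmiz1-KO-labelled libraries. These groups did not overlap either, but low values moved in steps of about 2 normalized counts. The log2 fold change was -0.28 ± 0.37 (SE) with a limma adjusted p of 0.854.

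Col9a3 and Col25a1 complete the 3 highest of this group beside Col26a1. Col9a3, a chain of the fibril-associated type IX collagen, had 1447, 1791 and 1828 normalized counts in wildtype and 1797, 1639 and 1889 in the Zmiz1-KO-labelled libraries. Col25a1, a transmembrane collagen made by neurons, had 726, 904 and 744 in wildtype and 806, 911 and 784 in the Zmiz1-KO-labelled libraries. Both genes overlapped widely, with log2 fold changes of 0.08 ± 0.09 (SE) each and limma adjusted p-values of 0.830 for Col9a3 and 0.811 for Col25a1. Without wildtype replicate 1 Col9a3 was at -0.03. Of the exon bases of Col9a3, 6.07% are shared with Tcfl5.

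The remaining chains had overlapping groups and limma adjusted p-values of 0.470 or more. Fibril-associated Col12a1 was at a log2 fold change of 0.19, Col14a1 at 0.16, Col22a1 at 0.21, Col9a1 at -0.35, Col9a2 at 0.03, Col19a1 at -0.10 and Col20a1 at -0.07. Col19a1 is known from interneurons, where a fragment of it takes part in the formation of inhibitory synapses. The transmembrane Col13a1 and Col23a1 were at 0.14 and 0.21, Col7a1, which forms anchoring fibrils in skin, at 0.11, Col28a1 at 0.30 and Col10a1, of growth plate cartilage, at -0.32. Several of these rest on 1 library. Col10a1 was at 0.46 without Zmiz1-KO replicate 3, where it had 2.03 normalized counts, and its group means were 10.3 and 10.2. Col14a1 was at -0.02 without the same library. Col12a1 and Col13a1 were at 0.04 and -0.03 without wildtype replicate 1, Col20a1 at 0.04 without Zmiz1-KO replicate 1 and Col7a1 at -0.0037 without wildtype replicate 2.

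**Figure D3:**
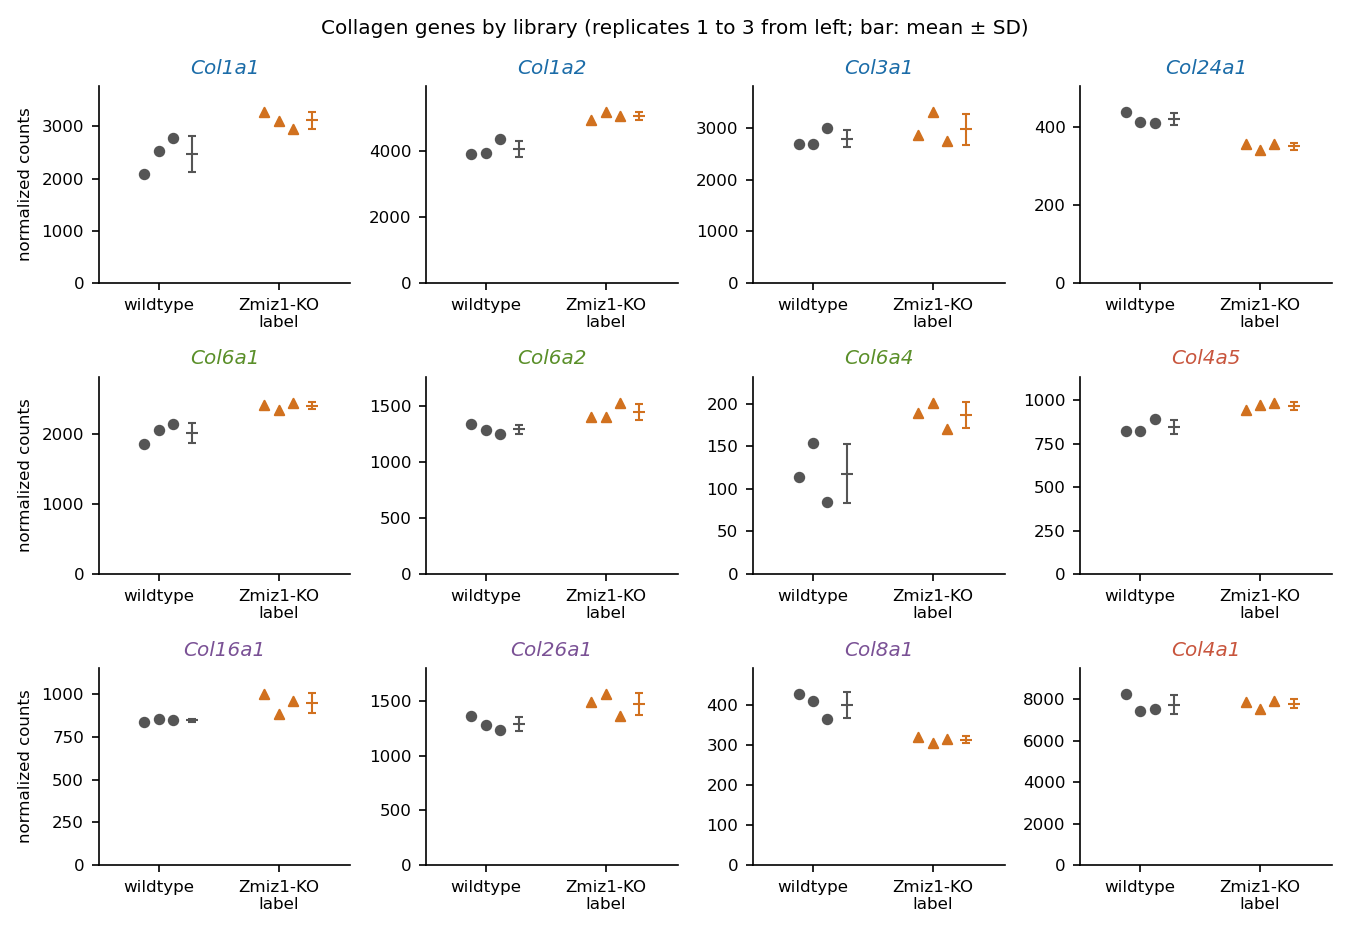
Normalized counts in each of the 6 libraries for 12 of the collagen genes named with values per library, with short lines and bars for the mean ± SD of each group (n = 3). The libraries labelled Zmiz1-KO lie above wildtype for Col1a2, Col1a1 and Col6a1 and below it for Col24a1 and Col8a1, while the groups mix for Col3a1 and Col4a1.

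Chains that assemble into one molecule, and other pairs of collagen genes, can be compared within a library, where scaling between libraries cancels. The log2 ratio of Col4a1 to Col4a2 was the steadiest of 9 pairs computed, at 0.26 ± 0.02 in wildtype and 0.24 ± 0.04 in the Zmiz1-KO-labelled libraries (SD, n = 3 each), and it spanned 0.08 over all 6 libraries. The log2 ratio of Col1a1 to Col1a2 was -0.73 ± 0.16 and -0.70 ± 0.10 in the same order. The difference in that ratio was 0.03 (exact permutation test, two-sided, p = 0.8). With 3 against 3 libraries the smallest p this test allows is 0.1.

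The ratio of Col1a2 to Col3a1, which encode chains of type I and type III and not of one molecule, kept the groups apart. On the log2 scale it was 0.54 in each of the 3 wildtype libraries and 0.78, 0.64 and 0.87 in the Zmiz1-KO-labelled libraries. The difference was 0.23, with an exact permutation p of 0.1 and a Benjamini-Hochberg adjusted value of 0.675 over the 9 pairs. This pair and Col6a1 to Col6a3 were chosen after their values were seen. The ratio of Col6a1 to Col6a3 differed by 0.22 with overlap (exact permutation p = 0.2), and that of Col6a1 to Col6a2 by 0.09 (exact permutation p = 0.4). The other 4 pairs, Col4a5 to Col4a6, Col9a3 to Col9a2, Col11a1 to Col11a2 and Col5a1 to Col5a2, differed by 0.17, 0.05, -0.13 and 0.02, with exact permutation p-values of 0.3, 0.8, 0.3 and 0.9.

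**Figure D4:**
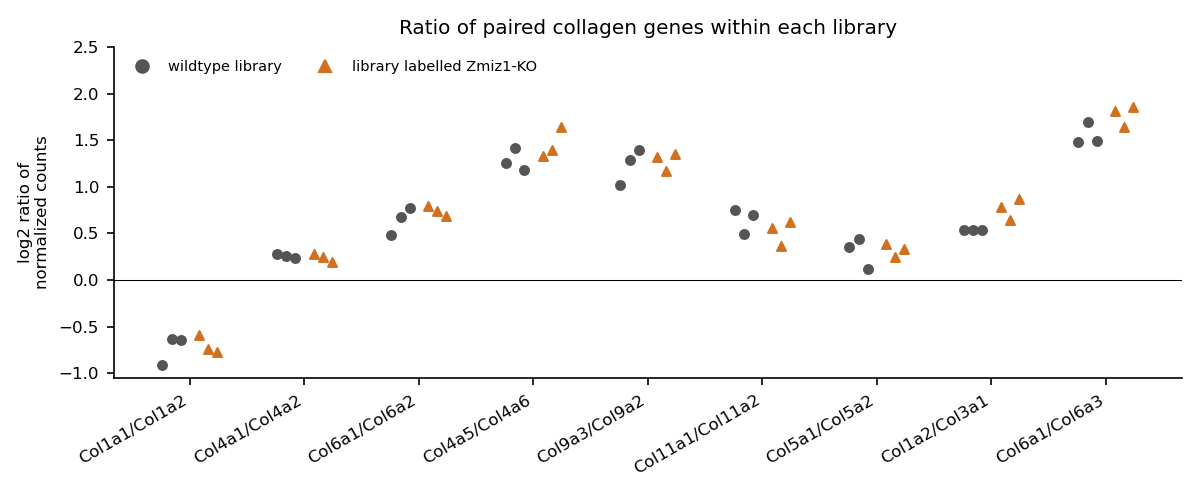
Log2 ratio of the normalized counts of paired collagen genes within each library, 3 wildtype libraries (circles) and 3 libraries labelled Zmiz1-KO (triangles) for each of 9 pairs, with a line at 0. Col4a1 to Col4a2 stays within 0.08 over all libraries, and the 3 wildtype points of Col1a2 to Col3a1 coincide at 0.54 below the triangles at 0.64 to 0.87.

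Genes that make, process, bind or degrade collagen were counted in 5 lists, of which 74 of 77 genes were tested. None of the 74 passed the limma test in either direction, and limma-voom also gave 0. An unadjusted limma p under 0.05 was reached by 12 of them in the higher and 3 in the lower direction, where all tested genes gave 5.13% and 5.84%. Fmod, which encodes the collagen-binding protein fibromodulin, was in none of the 5 lists and was picked with earlier results of these data known. In the same fit it was higher in every library labelled Zmiz1-KO, with a log2 fold change of 0.41 and a limma adjusted p of 0.0437.

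Of 20 genes of collagen biosynthesis, the modifying enzymes and chaperones of the secretory pathway, 14 had a log2 fold change above 0, and the median was 0.02. Sparc, a secreted protein that binds collagen, had the lowest p-value. Its normalized counts were 9258, 10768 and 9755 in wildtype and 11256, 11159 and 10643 in the Zmiz1-KO-labelled libraries, which overlapped, with a log2 fold change of 0.15 and a limma adjusted p of 0.249. P3h4, part of a complex that acts in lysine modification of collagen, was at 0.33 with an adjusted p of 0.298.

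Of 15 genes of procollagen processing and cross-linking, 10 had a log2 fold change above 0, and the median was 0.11. Adamts2, which removes the amino-terminal propeptide of fibrillar procollagens, had 409, 421 and 402 normalized counts in wildtype and 531, 565 and 511 in the Zmiz1-KO-labelled libraries. The groups were well apart, with a log2 fold change of 0.38 ± 0.08 (SE) and a limma adjusted p of 0.0598. Lox, which starts the cross-linking of fibrils, was at 0.37 with an adjusted p of 0.263.

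The non-collagen partners of basement membranes had a log2 fold change above 0 in 11 of 15 genes and a median of 0.05. Agrn, a heparan sulfate proteoglycan, was at -0.14 with a limma adjusted p of 0.191, and Lamb2, a laminin chain, at 0.17 with 0.28. Of 12 tested receptors for collagen, 9 were above 0, and the median was 0.05. Mrc2, which takes up collagen fragments, was at 0.26 with a limma adjusted p of 0.191, and the integrin chain gene Itga11 at 0.42 with 0.420. The receptor Gp6 was listed at 0 in all libraries.

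Of 12 tested genes of collagen degradation, 8 were above 0 and the median was 0.07. Ctsk, a protease that cleaves collagen in lysosomes, was at a log2 fold change of 0.48, and Mmp14, a membrane-bound collagenase, at 0.15, each with a limma adjusted p of 0.24. Mmp8 and Mmp13 did not pass the filter and were not tested. Mmp13 was at 0 in every wildtype library and at 25.9, 5.52 and 4.01 normalized counts in the Zmiz1-KO-labelled libraries. Mmp8 was at 0 in all libraries but Zmiz1-KO replicate 2, with 1.83.

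Markers of the cell types that a cortical dissection can hold were summed in each library. The 12 markers of meningeal fibroblasts, the main makers of fibrillar collagen in the brain, summed to 11236 to 13734 normalized counts in wildtype and to 15003 to 16951 in the Zmiz1-KO-labelled libraries. The ranges did not overlap. None of the 12 passed the limma test, all 12 had a log2 fold change above 0 with a median of 0.29, and none was at 0 in any library. The part of this difference in the collagen values was not tested.

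The 12 endothelial markers summed to 12893 to 13376 normalized counts in wildtype and 12853 to 13723 in the Zmiz1-KO-labelled libraries, and the 11 mural cell markers to 9320 to 10735 and 9925 to 10440. Both overlapped between the groups, as did the summed type IV chains, at 14831 to 16350 and 15362 to 16258. Of these markers, 5 of 12 and 4 of 11 had a log2 fold change above 0, and none passed the test.

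Markers of tissue next to the cortex also varied. The 9 striatal neuron markers summed to 11236 to 15901 in wildtype and 16737 to 18461 in the Zmiz1-KO-labelled libraries, all 9 with a log2 fold change above 0 and none past the test. The 9 choroid plexus markers ranged from 438 to 8701 in wildtype and from 511 to 5072 in the others, with 1 of 9 above 0. Wildtype replicate 1 had the lowest of the 6 sums for meningeal and striatal markers. It was the lowest library for 7 of 12 and 9 of 9 of these genes. It was also the lowest for Col1a1 and Col6a1 and, by a narrow margin, for Col1a2 and Col3a1. For Col4a1, Col8a1 and Col24a1 it was the highest. Its mural sum was also the lowest, through Rgs5 (2394 against 2769 to 3889), while it was lowest for 3 of the 11 mural genes and highest for Kcnj8, Abcc9, Myh11 and Notch3. For choroid plexus it and Zmiz1-KO replicate 2 were both low, and Ttr was lower in the latter (98.8 and 89.8). Their part in the collagen values was not tested.

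Among the cortical cell types, 8 excitatory neuron markers summed to 41274 to 45846 in wildtype and 41493 to 43190 in the Zmiz1-KO-labelled libraries, 8 astrocyte markers to 69114 to 74379 and 63401 to 71310, and 8 microglia markers to 4868 to 5187 and 4797 to 5016. The 7 markers of oligodendrocyte precursors summed to 16649 to 17777 in wildtype and 14794 to 15321 in the others, without overlap. In each of 3 of these lists 1 gene fell, namely Emx1, Aqp4 and Olig1, and no marker rose. Emx1 is also the driver gene of the Cre that only the libraries labelled Zmiz1-KO carried. The part of that allele in its fall was not tested.

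**Figure D5:**
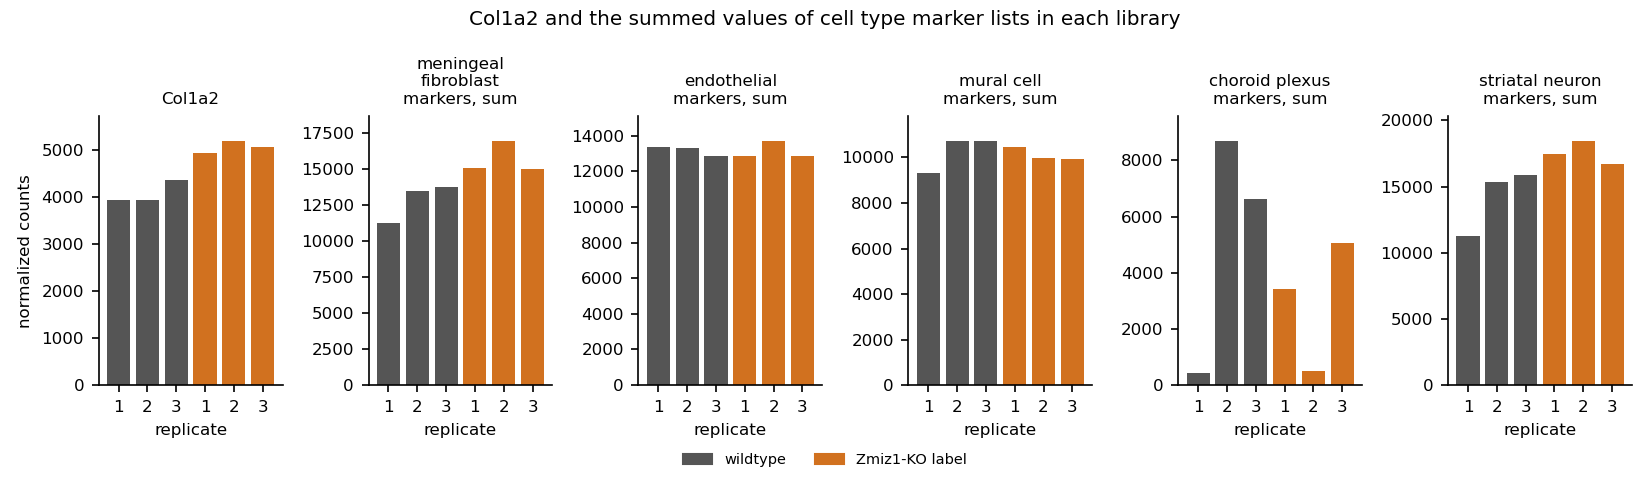
Normalized counts of Col1a2 and summed normalized counts of 5 marker lists in each of the 6 libraries, 1 bar a library, on axes that start at 0. Col1a2 and the meningeal fibroblast sum are higher in every library labelled Zmiz1-KO (15003 to 16951 against 11236 to 13734 for the sum), the endothelial and mural sums overlap, and the choroid plexus sum varies from 438 to 8701 within wildtype.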

How the data were processed

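Gene expression was measured by RNA sequencing of P7 cortex (TruSeq RNA v2 kit, which does not mark strand). The deposited signal is the authors' table of read counts per gene, aligned to mm10 with STAR and normalized between libraries with DESeq2. Versions and annotation are not given in the sources used here. Low values moved in steps of 1.83 to 2.11 normalized counts, a size looked for only within a narrow range. Of the low values (under 10 steps), 74.3 to 86.8% were within 0.05 of a whole number of steps. Of the values above 1000, 9.30 to 10.3% were, so whole reads were not recovered. Whether a step is 1 read or both reads of a pair was not checked. Divided by the step, the values summed to about 15494900 to 17858400 steps a library. No value column was left unmapped (0).

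The values were analysed as log2(value + 1) with limma 3.58.1 in R 4.3.3 (intensity trend, robust estimation, 3 against 3 libraries), for 15800 genes with at least 10 in at least 3 libraries, with Benjamini-Hochberg adjustment and a threshold of 0.05. Fold changes understate those of low genes because of the pseudocount of 1. The script was tested on simulated data. Lengths, overlaps and coordinates are from GENCODE M21 (GRCm38) and promoters from RefSeq. At most 2.97% of the 75-base words of any collagen gene were shared with another gene.

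Values per library are given for collagen genes past the threshold, those without overlap between groups, and the 3 highest per kilobase in each collagen group. For partner lists the 2 genes of lowest adjusted p are named. The members, the lists and the marker lists were chosen with earlier results of these data known. Alternatives covered scaling, filter, pseudocount, test, threshold, replicate block, Xist and leaving out each library.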

Additional observations from a re-analysis of the deposited data

How the results depend on the processing

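Col1a2 passed the threshold in each of the 10 alternatives that kept all libraries (limma adjusted p of 0.000957 to 0.0350). Among these, median-ratio scaling of values already normalized with DESeq2 returned the main fit, so it was no separate check. Col1a2 also passed in 5 of the 6 fits that left out a library, where the limma adjusted p ran from 0.00358 to 0.0688 over all 6. The count of collagen genes, 1, became 2 with upper-quartile scaling, 2 with at least 10 in every library and 2 at an adjusted p of 0.1. It was 0 to 2 with a library left out. Col6a1 was the added gene under upper-quartile scaling (limma adjusted p of 0.0475), at least 10 in every library (0.0480), without wildtype replicate 3 (0.0480) and without Zmiz1-KO replicate 2 (0.0364). Without wildtype replicate 2 it was Col6a4 (0.0290). Col6a1 passed in 2 of the 6 fits that left out a library, with limma adjusted p from 0.0364 to 0.327 over all 6. Col6a4 passed in 1 of these 6, with 0.0290 to 0.433. With all libraries kept, Col6a1 passed in 3 of the 10 alternatives (0.0211 to 0.156) and Col6a4 in 1 (0.0455 to 0.269). The count over all genes, 65, became 17 without robust estimation and 106 at an adjusted p of 0.1, and ran from 12 (without Zmiz1-KO replicate 3) to 152 (without Zmiz1-KO replicate 2) with a library left out. The count of partner genes, 0, became 1 at an adjusted p of 0.1 (Adamts2) and was 0 to 1 with a library left out (Sparc without wildtype replicate 2, Pxdn, lower, without Zmiz1-KO replicate 2) (Sparc without wildtype replicate 2, Pxdn, lower, without Zmiz1-KO replicate 2). The median log2 fold change with a library left out ran from 0.18 to 0.28 for type VI and from 0.020 to 0.16 for the other chains. Col1a2 kept its direction in all 16 alternatives. The replicate block, the Xist term, median-ratio scaling and the fit without robust estimation returned the fold changes of the main fit. They could therefore not turn a sign. Of the 44 collagen genes, 18 changed sign with a library left out, none of them called, and 26 kept their sign in every alternative. The cause of these shifts was not tested.

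With the replicate number as a block, 3 collagen genes passed (Col1a2, Col6a1 with a limma adjusted p of 0.0211 and Col6a4 with 0.0455), 168 of all genes and 2 partner genes (Adamts2 higher, Agrn lower). Libraries of the same number did not deviate together (correlations of -0.005, -0.113 and -0.006), so the numbers were not taken as pairs.

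With 3 libraries a group, low genes such as Col17a1, Col10a1 and Col6a6 rest on few reads. None of these passed the test, and whether they differ between the groups could not be told.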
